A study of Mus musculus with 12 samples.

Results

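The smoke by age interaction asks of each gene whether cigarette smoke moved its RNA in the mouse lung by a different amount at 6 months of age than at 4 months. All 12 of the 12 arrays of the series entered it, 3 in each of 4 groups. The groups were lungs of cigarette smoke-treated female C57BL/6N mice at 4 months, lungs of control mice at 4 months, and the same pair at 6 months. No transgene or deletion is named for any group, and all mice were housed under specific pathogen free conditions. The study as a whole is about lymphoid tissue that forms around the airways of smoke-exposed mice and the activation of lung macrophages. The labels call the samples biological replicates, without saying whether 1 array holds 1 mouse, and give neither the length of smoke exposure nor the hour of collection. Age, length of exposure and any difference in handling between the ages cannot be told apart. The interaction is (smoke minus control at 6 months) minus (smoke minus control at 4 months), on the log2 scale. It also equals the 6 minus 4 month change of the smoke arrays, called the smoke arm here, minus that of the control arrays, the control arm. A positive value therefore means that smoke lungs stood relatively higher at 6 months than at 4 months, from either arm.

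Whole lung RNA pools epithelium, vessels, resident macrophages and the leukocytes that smoke draws in, so more cells of a type and more RNA per cell cannot be told apart. Several programmes that act on top of cell numbers are considered below. Glucocorticoid hormone, which follows a daily rhythm and rises with stress, switches on a set of feedback and metabolic genes through its nuclear receptor. Interferons switch on antiviral genes through a short promoter element, and genes of S phase and mitosis are high only in dividing cells. B cells in lymphoid follicles are held by the chemokine Cxcl13 and can mature into antibody-secreting plasma cells.

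The median raw intensity was 18 to 28 per array, and 55.1 to 57.6% of the probes were detected. The number of arrays, 3 per group, limits the precision. Lung genes were bright on every array: Sftpc, a surfactant protein of alveolar type 2 cells, read 13.92 to 14.43 and Scgb1a1, the secretory protein of club cells, 14.63 to 14.74, as normalized log2 intensities. 1 library stood apart from its label. The third control array at 4 months correlated more closely with the 3 smoke arrays of its age (Pearson r of 0.988 to 0.990 across genes) than with the other 2 control arrays (0.984 to 0.987). Each of the other 11 arrays correlated more closely with its own group than with the other treatment at its age. Its macrophage genes still matched its label. The median level of 20 monocyte and other macrophage genes, each minus its mean over the 12 arrays, was -0.22 on it. The smoke arrays of its age lay at 0.20 to 0.44 and the other 2 controls at -0.14 and -0.46. Gpnmb read 10.07, the highest of the control arrays, against 12.86 to 13.14 on those smoke arrays. Results without the third control array at 4 months are given for only some of the values that move. The first control array at 4 months was the highest of the 12 for S100a8, a neutrophil granule gene, at 14.52 against a lowest value of 11.20.

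No gene passed for the interaction. At a limma adjusted p below 0.05 it called 0 of 10541 genes (0%), and 875 genes (8.3%) had an unadjusted p below 0.05, 467 with a positive value (4.43%) and 408 with a negative one (3.87%). Over all genes 52.3% of the values were positive and 47.7% negative. The shares of 4.43% and 3.87% are the background for every list count of interactions at that p below. The smallest adjusted p was 0.142, and the median standard error of an interaction was 0.20. In the same fit, smoke changed 174 genes at 4 months (1.65%) and 535 at 6 months (5.08%), with 142 called at both ages and 0 of them in opposite directions. The average smoke effect over both ages called 734 genes (6.96%). The difference between the counts at the 2 ages is no test of a difference in effect. What follows describes interaction values that did not pass, and the words rose and fell are used for a smoke effect at a single age that did.

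Across the 10541 genes the smoke effects at 4 and 6 months, which share no array, had a Pearson r of 0.56 (genes are not independent replicates). Of the 734 genes called for the average effect, 513 (69.9%) had the larger effect at 6 months, against 49.6% of all genes. For the 453 called higher with smoke (4.3% of all genes) the median effect was 0.50 at 4 months and 0.74 at 6 months, and for the 281 called lower (2.67%) it was -0.39 and -0.51. This share depended strongly on 1 array. Without the third control array at 4 months it was 48.1% of 951 genes, against 41.4% of all genes. The number of genes called at 4 months was then 370 in place of 174. Without any other array the share was 67.2 to 77.6%. Leaving out an array unbalances the design, so the average effect and the interaction are then no longer uncorrelated, and these shares are not strictly comparable with 69.9%.

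Among the 875 genes at an unadjusted p below 0.05, 642 (73.4%) had smoke effects of opposite sign at the 2 ages, against 41.0% of all genes. Choosing genes by the difference between the 2 effects favours opposite signs, so nothing is read from that excess. In 200 (22.9%) the effect had one sign and was larger at 6 months, and in 33 (3.77%) it was smaller. The shares of the arms are given beside those of all genes. In 360 of the 875 (41.1%) the control arrays moved at least 2 times as far between the ages as the smoke arrays, in 175 (20%) the smoke arrays did, and in 340 (38.9%) both moved. Over all genes those shares were 34.8%, 23.4% and 41.8%, so the control share was above the smoke share there too. The SD of the change over all genes was 0.27 in the control arm and 0.22 in the smoke arm. The shares were not recomputed with an array left out, and nothing is read from them. Within an arm, limma called 6 genes between the ages in control lungs (0.0569%) and 2 in smoke lungs (0.019%). Without the third control array at 4 months the control count was 575.

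**Figure D1:**
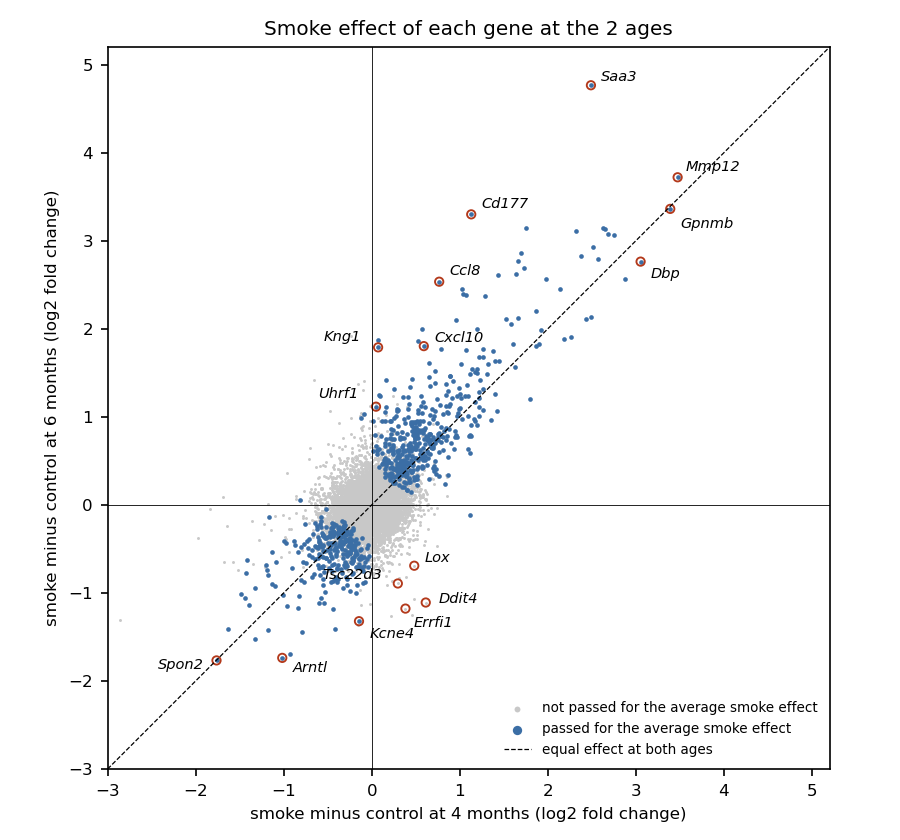
Smoke effect (smoke minus control, log2 fold change) at 4 months on the horizontal axis and at 6 months on the vertical axis, with 1 point per gene for 10541 genes, the genes that passed for the average smoke effect in blue, and named genes circled. Saa3 and Cd177 lie above the line of equal effect, Gpnmb, Mmp12 and Spon2 lie close to it, and Lox, Tsc22d3, Errfi1 and Ddit4 lie where the effect is above 0 at 4 months and below 0 at 6 months.

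Targets of the glucocorticoid receptor had the most negative median of the 56 lists. Of 20 tested members out of 23, 11 had a negative interaction at an unadjusted p below 0.05 and 0 a positive one, 16 values were negative, and the median was -0.68 against 0.01 over all genes. The median smoke effect was 0.26 at 4 months and -0.39 at 6 months. Both arms took part: the median change between the ages was 0.27 in control lungs and -0.28 in smoke lungs. Tsc22d3, the glucocorticoid-induced leucine zipper, read 11.56, 11.77 and 11.46 on the control arrays and 11.91, 11.89 and 11.88 on the smoke arrays at 4 months. At 6 months it read 12.05, 12.54 and 12.47 in controls and 11.66, 11.30 and 11.43 with smoke. The smoke arrays thus lay above all controls at 4 months and below all controls at 6 months, and the interaction was -1.19 ± 0.20 (SE, adjusted p = 0.26).

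Errfi1, a feedback inhibitor of the EGF receptor, followed the same order. Its control arrays were at 11.52, 11.90 and 11.95 at 4 months and at 12.61, 12.86 and 13.44 at 6 months. The smoke arrays were at 12.13, 12.02 and 12.36 and at 11.88, 11.97 and 11.52. The control change of 1.18 was the larger arm, and the interaction was -1.56 ± 0.29. Ddit4, a stress-induced inhibitor of mTORC1, had the largest size in the list, -1.72 ± 0.35, with controls at 8.44 to 9.18 and 9.22 to 10.03 and smoke arrays at 9.08 to 9.84 and 8.38 to 8.58. Its groups overlapped at 4 months and did not at 6 months. Cdkn1a, the cell cycle inhibitor p21, had a value of -1.13.

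At 6 months smoke lowered 7 of the 20 glucocorticoid targets and raised 1 (background 1.73% lower and 3.35% higher). Tsc22d3 fell by 0.89, Errfi1 by 1.18, Ddit4 by 1.11, Cdkn1a by 0.83 and Dusp1 by 1.00. Pdk4, which slows glucose oxidation, and Angptl4, an inhibitor of lipoprotein lipase, also fell, and were named after their values were seen. The gene that rose, Lcn2, is an iron-binding protein of neutrophils and airway epithelium, and it rose by 2.77. At 4 months limma called 0 of 20, with 4 higher (background 7.03%) and 0 lower (7.75%) at an unadjusted p below 0.05. Fkbp5, the receptor's co-chaperone and one of its best known targets, was not among those that fell: its smoke effects were 0.86 and 0.32, and its interaction was -0.54 ± 0.51. The second control array at 6 months read 8.07 for Fkbp5 where the other 2 read 6.26 and 6.33. The list's count ran from 8 to 11 when each array was left out in turn, and its median from -0.74 to -0.56.

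Because glucocorticoid output is daily, the clock genes are given beside it. Dbp, a clock output factor, read 7.76, 8.21 and 8.32 in controls and 11.35, 10.82 and 11.29 with smoke at 4 months. At 6 months it read 8.77, 9.56 and 9.96 in controls and 12.25, 12.18 and 12.15 with smoke. It rose with smoke at both ages, by 3.05 and 2.76, and its interaction was -0.29 ± 0.36. Over the 11 genes of clock output and the PER arm the median smoke effect was 0.97 at 4 months and 1.01 at 6 months, and both arms shifted up with age, by a median of 0.24 in control and 0.23 in smoke lungs. Arntl, the clock activator also called Bmal1, fell by 1.02 at 4 months and by 1.74 at 6 months, with an interaction of -0.72 ± 0.28 from the smoke arm. Nfil3, the repressor E4BP4, had -0.64 ± 0.24 from the same arm. Npas2, a partner of Arntl, fell at 4 months by 1.20. No smoke array detected it at 6 months, where it was at least 1.45-fold lower, so no interaction is given for it. The part of collection hour in these values was not tested.

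Heat shock and immediate early genes had negative medians as well. All 14 cytosolic heat shock genes had a negative interaction, with a median of -0.28, 2 of them at an unadjusted p below 0.05. Hspa1a, the inducible HSP70, had -1.71 ± 0.60, its controls at 7.32, 8.18 and 7.49 at 4 months and 8.28, 9.31 and 9.50 at 6 months. Its smoke arrays were at 7.30, 8.80 and 8.26 and at 7.54, 7.31 and 8.48, so the groups overlapped at both ages. Limma called 0 heat shock genes at 4 months, where 3 were higher at an unadjusted p below 0.05 (background 7.03%). It called 0 at 6 months, where 3 were lower at that p (background 8.38%). Of 21 immediate early genes, 3 had a negative and 1 a positive interaction at that p, and the median was -0.29. Csrnp1, a nuclear protein induced by AXIN1, fell with smoke at 6 months by 1.27 and had an interaction of -1.49 ± 0.30. Dusp1, a phosphatase that switches off MAP kinases, stands in this list and in the glucocorticoid list, and had -0.82 ± 0.28 from the smoke arm. Ier3 was the exception at 0.75. Fos and Egr1, the usual first responders to tissue handling, had -0.56 ± 0.47 and -0.01 ± 0.34. Without the third control array at 4 months the immediate early median was -0.09.

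**Figure D2:**
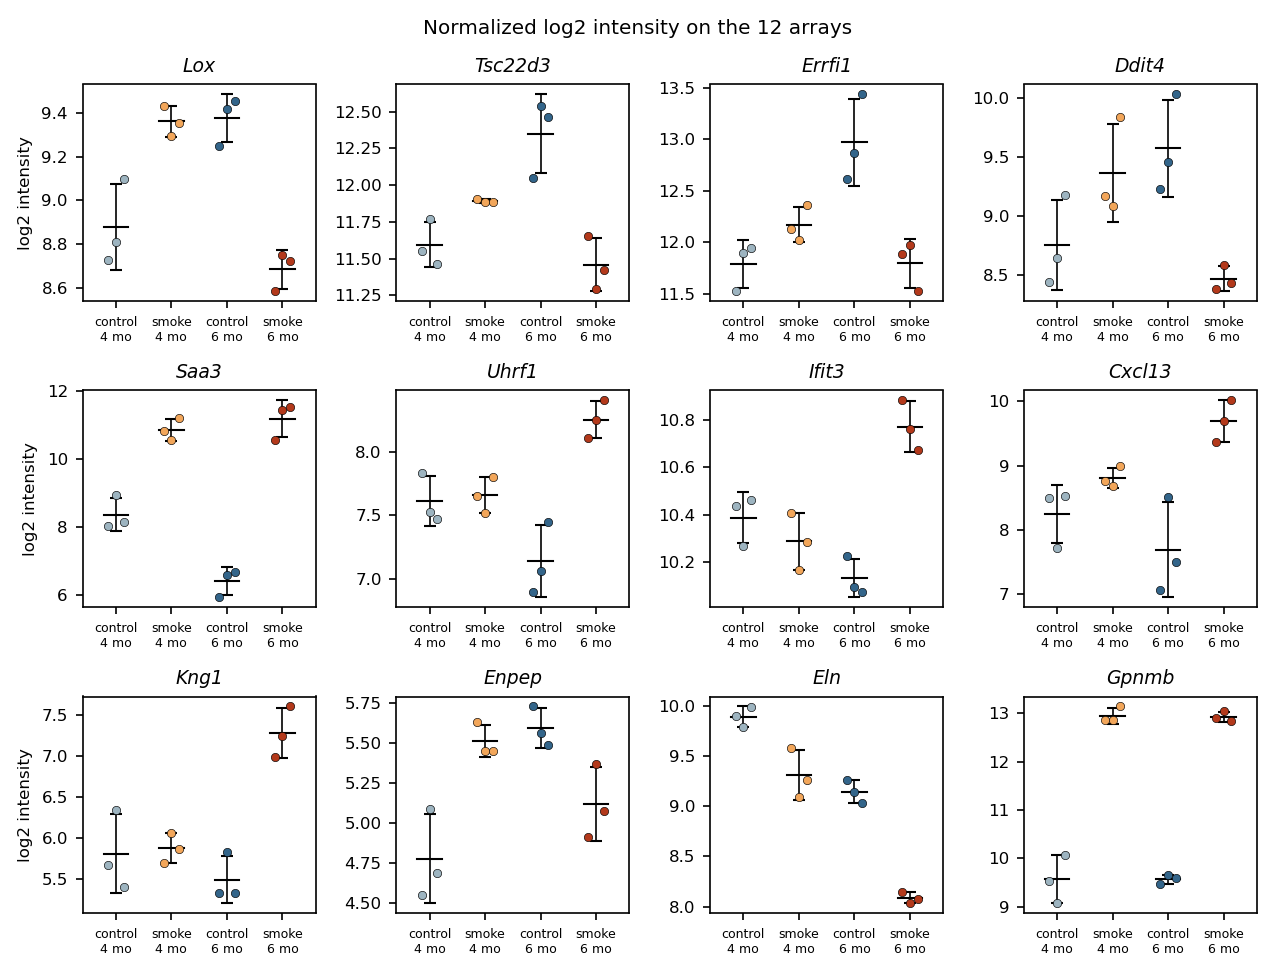
Normalized log2 intensity of 12 genes on the 12 arrays, with 1 point per array, a horizontal line at the group mean and bars of 1 SD over 3 arrays, on axes that differ between panels. Lox, Tsc22d3, Errfi1 and Enpep are higher with smoke at 4 months and lower at 6 months, Saa3, Uhrf1, Ifit3, Cxcl13 and Kng1 separate further at 6 months, and Gpnmb has nearly the same step at both ages.

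Lox had the smallest p of all genes. It encodes lysyl oxidase, which crosslinks collagen and elastin. Control arrays read 8.73, 8.81 and 9.10 at 4 months and 9.25, 9.42 and 9.46 at 6 months, while smoke arrays read 9.43, 9.30 and 9.35 and then 8.58, 8.75 and 8.72. The order of the groups turned over without overlap at either age. The interaction was -1.17 ± 0.16, with a 95% interval of -1.53 to -0.82 and an adjusted p of 0.142, and both arms carried it, with 0.50 in control and -0.68 in smoke lungs. Lox fell with smoke at 6 months by 0.69. Without the third control array at 4 months the value was -1.28 and the adjusted p was 0.0349.

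Elastin itself did not turn over in this way. Of 15 tested genes, 3 had a negative interaction at an unadjusted p below 0.05 and 0 a positive one, with a median of -0.15, or -0.08 with genes undetected in a group held at their bound. The smoke effect had opposite signs in 4 of the 15. Eln, the elastin gene, read 9.90, 9.78 and 9.99 in controls and 9.58, 9.10 and 9.26 with smoke at 4 months. At 6 months it read 9.26, 9.14 and 9.03 and then 8.15, 8.04 and 8.08. It fell with smoke by 0.58 and by 1.06, lower on every smoke array at each age, and the interaction of -0.48 ± 0.18 came from both arms, which dropped by 0.75 and 1.23 between the ages. Mfap4, a microfibril protein, had -0.74 ± 0.27 with smoke effects of 0.55 and -0.19, from both arms.

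Other genes with a negative interaction are described one by one. Enpep, an aminopeptidase that cleaves angiotensin II, had -1.21 ± 0.22, with controls at 4.55, 5.09 and 4.69 at 4 months and 5.73, 5.56 and 5.49 at 6 months, and smoke arrays at 5.63, 5.45 and 5.45 and at 4.91, 5.37 and 5.08. It was detected on 1 control array at 4 months, so its rise of 0.74 at that age starts near background. Kcne4, a potassium channel subunit, had -1.18 ± 0.26 and fell at 6 months by 1.32. Adm, the vasodilator peptide adrenomedullin, read 6.83, 6.39 and 6.44 in controls and 5.99, 6.31 and 6.11 with smoke at 4 months, and 6.49, 6.18 and 6.75 and 5.03, 5.04 and 5.13 at 6 months. Its interaction of -0.99 ± 0.22 came from the smoke arm, and it fell at 6 months by 1.41. Agtr1a, the main angiotensin II receptor, had -0.80 ± 0.26. These 4 genes were not fixed as a list, and the 27 endothelial genes that were had a median of -0.08, with 1 negative and 0 positive at an unadjusted p below 0.05.

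Mamdc2 rose at 4 months by 1.11, with controls at 7.29, 7.29 and 8.02 and smoke arrays at 8.67, 8.67 and 8.60. Its 6-month groups overlapped, at 8.02 to 8.43 and 8.01 to 8.30, and the interaction was -1.23 ± 0.26. Its adjusted p was 0.0352 without the third control array at 4 months. Fmo2, the flavin mono-oxygenase of lung, had -0.84 ± 0.17 and fell at 6 months by 0.58, with 3 of 20 xenobiotic genes negative and 0 positive at an unadjusted p below 0.05. Akap12, a scaffold of protein kinase A, had -0.86 ± 0.18, and Arhgap10 had -0.70 ± 0.13. No control array detected Arhgap10 at 4 months, where it was at least 1.16-fold higher with smoke, so its interaction is set against a level near background. Of 16 cholesterol synthesis genes, 4 were negative and 0 positive at that p, and the median smoke effect was 0.17 at 4 months and -0.03 at 6 months. The median change was 0.21 in the control arm and 0.05 in the smoke arm. The median interaction was -0.16. Without the first control array at 4 months the count of 4 was 0 and the median interaction -0.09. Without the third they were 5 and -0.27. Sqle, squalene epoxidase, had -0.42 ± 0.15 and Idi1, isopentenyl isomerase, -0.78 ± 0.34.

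**Figure D3:**
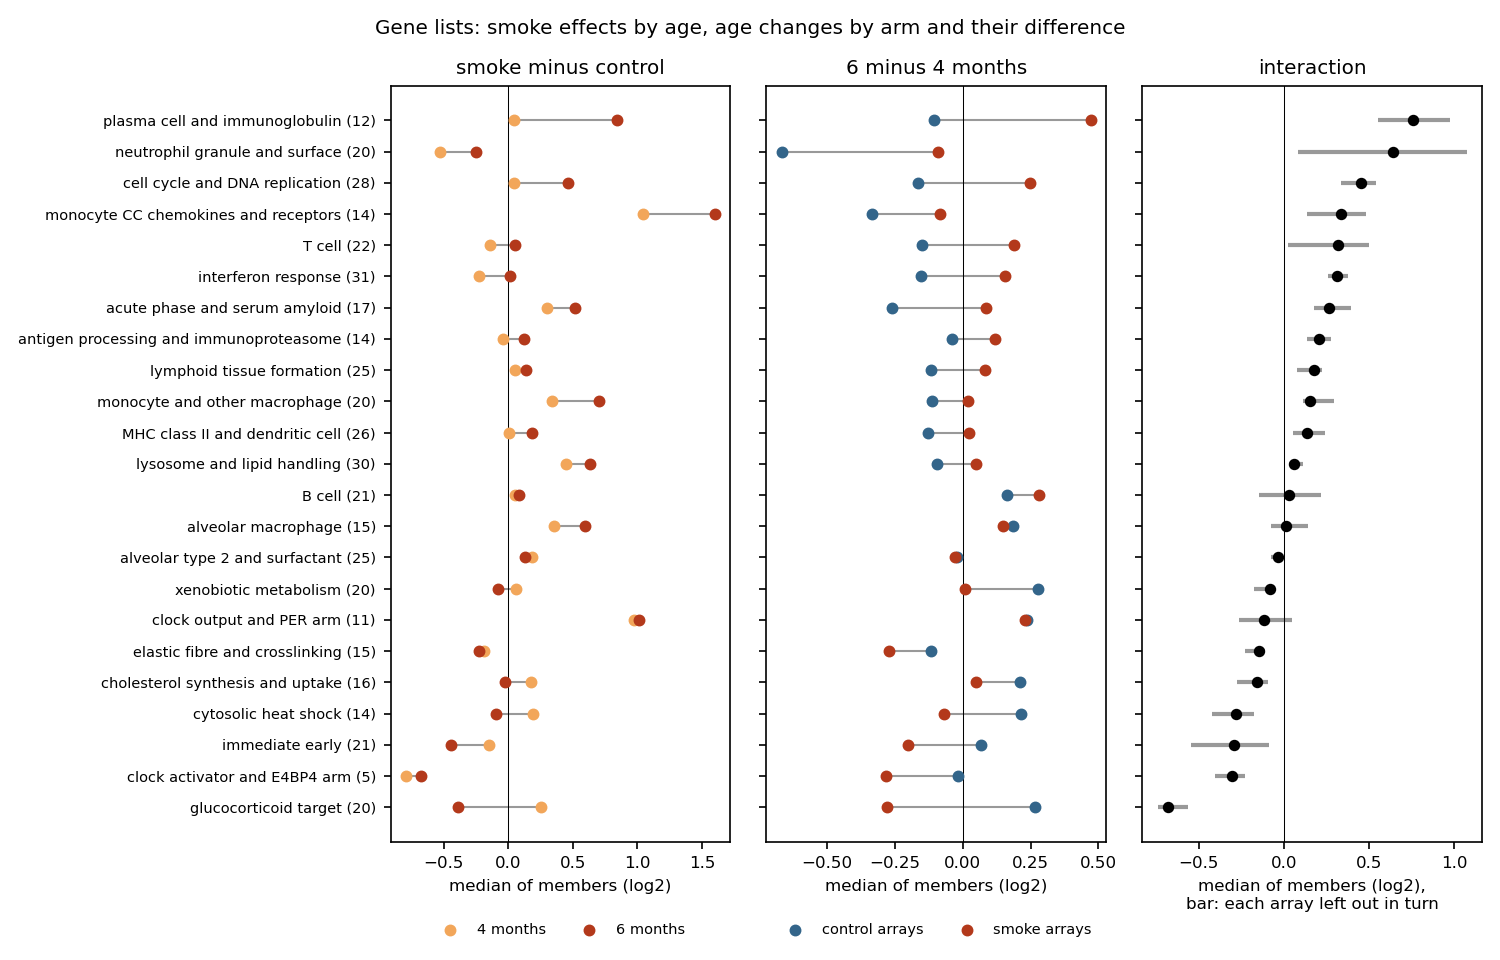
Medians over the tested members (number in brackets) of 23 gene lists, on the log2 scale: the smoke effect at each age in the first panel, the change from 4 to 6 months in each arm in the second, and the interaction in the third with a bar from the lowest to the highest value when each array is left out in turn. Glucocorticoid targets lie at -0.68 and plasma cell genes at 0.76, the alveolar macrophage list lies at 0.01, and the bars of the neutrophil and T cell lists are wide.

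Acute phase and CC chemokine genes included members with large smoke effects at both ages. Saa3, a serum amyloid made by macrophages and epithelium, read 8.03, 8.92 and 8.13 in controls and 10.80, 10.55 and 11.20 with smoke at 4 months. At 6 months the controls were at 5.93, 6.60 and 6.68 and the smoke arrays at 10.54, 11.44 and 11.53. It rose by 2.49 and by 4.77, and its interaction of 2.28 ± 0.43 (adjusted p = 0.26) came from the control arm, which dropped by 1.96 between the ages while the smoke arm was 0.32. Of 17 acute phase genes, 14 had a positive interaction and 2 were at an unadjusted p below 0.05, with a median of 0.27. With single arrays left out the count ran from 1 to 6, the latter without the second control array at 4 months, and the median from 0.17 (without the second smoke array at 6 months) to 0.39. Orm1, an acute phase glycoprotein, rose at both ages, by 2.33 and 3.11, and its interaction of 0.78 ± 0.59 was close to its error.

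Kng1, the kininogen from which kinins are cut, differed from Saa3 in its arm. It read 5.67, 6.34 and 5.40 in controls and 5.70, 6.06 and 5.87 with smoke at 4 months, and 5.32, 5.83 and 5.32 and 6.99, 7.24 and 7.61 at 6 months. It rose at 6 months by 1.79, where the groups were apart, and the interaction of 1.72 ± 0.33 came from the smoke arm. The monocyte-drawing CC chemokines had a median smoke effect of 1.04 at 4 months and 1.60 at 6 months, 7 and 9 of 14 rose (background 1.28% and 3.35%), and the median interaction was 0.33 with 2 positive at an unadjusted p below 0.05. Ccl4 rose by 1.20 and by 2.00 and had an interaction of 0.80 ± 0.21. Ccl8 read 6.36 to 8.14 in controls and 8.21 to 8.36 with smoke at 4 months, then 5.80 to 7.48 and 9.03 to 9.20, apart at both ages, with an interaction of 1.77 ± 0.61. Ccl2 rose by 1.63 at 4 months, and at 6 months, when no control array detected it, it was at least 2.11-fold higher. Without the third control array at 4 months the median of the CC chemokines was 0.14. Cxcl1, a neutrophil-drawing chemokine, had smoke effects of 1.76 and 3.15, the second of which passed, and an interaction of 1.39 ± 0.56. Its first control array at 4 months stood at 8.76 beside 6.47 and 7.51.

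By count at an unadjusted p below 0.05, interferon response genes gave the most members on one side, 13, of the 56 lists. By share, 41.9% of those tested, they stood below plasma cell genes (58.3%, positive) and glucocorticoid targets (55%, negative). Over all genes 4.43% were positive and 3.87% negative at that p. Of 31 tested members out of 40, 13 had a positive interaction at an unadjusted p below 0.05 and 0 a negative one, 27 values were positive, and the median was 0.31. The median smoke effect was -0.23 at 4 months and 0.01 at 6 months, with -0.15 in the control arm and 0.16 in the smoke arm. Ifit3, an antiviral protein, read 10.44, 10.27 and 10.46 in controls and 10.41, 10.17 and 10.29 with smoke at 4 months. At 6 months it read 10.23, 10.10 and 10.07 and 10.88, 10.76 and 10.67. The groups overlapped at 4 months and were apart at 6 months, and the interaction was 0.74 ± 0.15 (adjusted p = 0.26).

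Members of the interferon list differed in which age set them apart. Isg15, a ubiquitin-like modifier, read 8.36, 7.83 and 8.59 in controls and 7.58, 7.51 and 7.60 with smoke at 4 months, then 7.71, 7.98 and 7.83 and 8.02, 8.08 and 7.84. Its smoke arrays lay below the controls at 4 months and overlapped with them at 6 months, an interaction of 0.84 ± 0.23. Oas2, an oligoadenylate synthetase, fell at 4 months by 1.00 and had -0.41 at 6 months. Ifit3 and Oas1g, by contrast, rose at 6 months, by 0.64 and 0.53, as did Cxcl10, a T cell-drawing chemokine, by 1.80. Cxcl10 had an interaction of 1.21 ± 0.31. In all, smoke lowered 2 members at 4 months (background 0.37%) and raised 4 at 6 months (3.35%). At an unadjusted p below 0.05, 11 of 31 were lower and 2 higher at 4 months (background 7.75% and 7.03%). At 6 months 5 were higher and 1 lower at that p (9% and 8.38%). The count of positive interactions at an unadjusted p ran from 8 to 13 when each array was left out. It was 8 without the second smoke array at 4 months and 10 without the third control array at 4 months.

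Promoters are shown for 2 of these genes that hold the interferon-stimulated response element, which many but not all members of the interferon list carry. In the 250 bases before the start of the gene, from RefSeq (GRCm38.p6, 1 start per gene, 22 of the 31 tested members matched), this element was searched as a pair of GAAA words with any 2 bases between them, on either strand. It stood in 12 of 22 (54.5%). Among the 10 matched members at an unadjusted p below 0.05 it stood in 6 (60%), close to the share in the whole list. Irf7, Irf1, Oasl1 and Oasl2 were those of the 10 with 0 matches. Over 8545 tested genes with a promoter the element stood in 2.73%, and over all 32851 promoters in 2.98%. Capitals mark the matches, which can overlap each other, at chr19:34583279-34583528 (plus strand) for Ifit3 and chr4:156200819-156201068 (minus strand) for Isg15, both written 5′ to 3′ along the gene. Ifit3 has 2 matches and Isg15 has 3.
Ifit3: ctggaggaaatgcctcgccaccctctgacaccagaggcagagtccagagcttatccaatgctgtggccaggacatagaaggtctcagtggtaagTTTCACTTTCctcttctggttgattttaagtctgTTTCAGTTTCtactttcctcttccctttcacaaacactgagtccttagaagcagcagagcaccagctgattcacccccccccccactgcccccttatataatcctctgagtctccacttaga
Isg15: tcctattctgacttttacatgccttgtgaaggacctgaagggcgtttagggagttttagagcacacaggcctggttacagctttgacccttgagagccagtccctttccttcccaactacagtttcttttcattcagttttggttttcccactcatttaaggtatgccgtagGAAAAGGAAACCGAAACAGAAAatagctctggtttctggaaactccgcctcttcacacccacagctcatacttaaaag
A match in this window is a description of the letters and not of binding. For glucocorticoid targets, the receptor element, searched as GNACA and TGTNC with any 3 bases between, stood in 1 of 19 members (5.26%), against 0.269% of the tested genes, and in 0 of the 10 matched members at an unadjusted p below 0.05.

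Antigen presentation genes sat on the same side with smaller values. Of 14 genes of antigen processing and the immunoproteasome, 4 had a positive interaction at an unadjusted p below 0.05 and 0 a negative one (background 4.43% and 3.87%). Limma called 0 at either age. At an unadjusted p below 0.05, 1 was higher and 3 lower at 4 months (background 7.03% and 7.75%). At 6 months 0 were higher and 0 lower (9% and 8.38%). Tap1, which carries peptides into the endoplasmic reticulum, read 8.26, 8.21 and 7.67 in controls and 7.24, 7.37 and 7.61 with smoke at 4 months, then 7.55, 7.03 and 7.60 and 7.62, 7.37 and 7.57. The 4-month groups were apart and the 6-month groups were not, an interaction of 0.77 ± 0.26. Nlrc5, the transactivator of class I genes, had 0.59 ± 0.22. Of 26 class II and dendritic cell genes, 5 interactions were positive and 0 negative at that p (background 4.43% and 3.87%). Fscn1, an actin bundler of mature dendritic cells, rose at 6 months by 1.23 and had 1.14 ± 0.33, and Batf3, a factor of cross-presenting dendritic cells, had 0.73 ± 0.22. Both came from the control arm. The antigen processing count was 2 without the first smoke array at 4 months, and the class II count 8 without the first control array at 6 months.

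Markers of lymphocytes are given beside these lists. Lag3, an inhibitory receptor of T cells, read 5.80, 5.51 and 5.23 in controls and at most 5.09 with smoke at 4 months, then 5.22, 5.48 and 5.23 and 5.70, 5.92 and 6.04. Its order turned over without overlap, an interaction of 1.05 ± 0.21. Of 22 T cell genes, 3 were positive and 1 negative at an unadjusted p below 0.05 (background 4.43% and 3.87%). Their median was 0.32, or 0.22 with genes undetected in a group held at their bound. That median was 0.02 without the first control array at 4 months and 0.50 without the second, where the count of positive members was 0 and 12. Of 17 genes of natural killer and cytotoxic cells, 3 were positive and 0 negative (the same background). Their median of 0.23 was -0.08 over probes detected on all 12 arrays. Ifng, the type 2 interferon, had 0.65 ± 0.24, with levels of 4.41 to 5.56 over the 12 arrays, near background. Nkg7, a granule protein, fell at 4 months by 0.64 and had 0.43 ± 0.18. Klrd1, the receptor subunit CD94, fell at both ages, by 0.61 and 0.69, and had an interaction of -0.08. The part of lymphocyte number in the interferon and antigen presentation values was not tested.

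Cell cycle genes had smoke effects near 0 at 4 months and above 0 at 6 months. Of 28 tested members out of 40, 11 had a positive interaction at an unadjusted p below 0.05 and 0 a negative one, and 25 values were positive. The median smoke effect was 0.05 at 4 months and 0.46 at 6 months, with -0.17 in the control arm and 0.25 in the smoke arm. At 6 months smoke raised 10 of 28 (background 3.35%) and lowered 0. At 4 months limma called 0, with 1 higher and 1 lower at an unadjusted p below 0.05 (background 7.03% and 7.75%). At 6 months 19 were higher at that p (background 9%). Uhrf1, which maintains DNA methylation at replication, read 7.83, 7.52 and 7.47 in controls and 7.65, 7.52 and 7.80 with smoke at 4 months. At 6 months it read 6.90, 7.06 and 7.45 in controls and 8.11, 8.25 and 8.40 with smoke, and it rose by 1.12. The interaction was 1.07 ± 0.22 (adjusted p = 0.26). Top2a, the topoisomerase of dividing cells, had controls at 6.78, 6.15 and 6.78 and then 5.42, 5.67 and 6.04, while its smoke arrays stood at 6.67 to 6.79 and 6.66 to 6.82. Its interaction of 0.90 ± 0.25 came from the control arm, which dropped by 0.86.

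Further genes of division had the same sign. Rad54l, a recombination repair enzyme, read 5.70, 5.59 and 5.30 in controls and 5.31, 5.48 and 5.45 with smoke at 4 months, then 4.70, 4.61 and 5.13 and 5.92, 5.75 and 5.73. It rose at 6 months by 0.99 and had 1.11 ± 0.21, although 1 control array detected it at 6 months. Espl1, the protease separase, had 0.81 ± 0.17 and Knstrn, a spindle protein, 1.08 ± 0.23. Tk1, thymidine kinase, had 1.12 ± 0.24 and Cdc20, an activator of the anaphase-promoting complex, 0.81 ± 0.19, and for each of them 1 other probe had a negative value. The list's count was 10 to 13 when each array was left out, and its median 0.34 to 0.54.

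Cell cycle genes often share the CCAAT box and the cell cycle homology region, TTTGAA. The promoters of Cdc20 and Top2a are shown because they hold both. On either strand of the 250 bases before the start, CCAAT stood in 20 of 26 members with a promoter (76.9%) and in 36.1% of the tested genes. TTTGAA stood in 6 of 26 (23.1%) and in 11% of the tested genes. Capitals mark both, at chr4:118437344-118437593 (minus strand, 3 matches) for Cdc20 and chr11:99024190-99024439 (minus strand, 8 matches) for Top2a, written 5′ to 3′ along the gene from RefSeq GRCm38.p6.
Cdc20: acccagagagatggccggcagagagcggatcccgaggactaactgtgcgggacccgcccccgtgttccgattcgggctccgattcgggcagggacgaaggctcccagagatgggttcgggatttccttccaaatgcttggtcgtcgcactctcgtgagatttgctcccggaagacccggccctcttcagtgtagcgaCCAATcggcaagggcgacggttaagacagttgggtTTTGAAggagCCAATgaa
Top2a: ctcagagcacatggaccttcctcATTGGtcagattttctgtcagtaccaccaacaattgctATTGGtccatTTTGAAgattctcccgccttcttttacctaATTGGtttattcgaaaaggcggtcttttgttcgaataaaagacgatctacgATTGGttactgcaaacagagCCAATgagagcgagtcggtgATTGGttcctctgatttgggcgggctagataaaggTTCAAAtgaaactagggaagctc
The 8 members of the cell cycle list that hold CCAAT among the 11 at an unadjusted p below 0.05 make up 72.7%, close to the share in the whole list. TTTGAA stood in 2 of those 11 (18.2%), and these are the 2 genes shown.

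Plasma cell genes had a median interaction of 0.76, or 0.60 with undetected genes at their bound. The neutrophil list had 0.64 on both scales. Of 12 tested members out of 22, 7 had a positive interaction at an unadjusted p below 0.05 and 0 a negative one, and the smoke arm carried the list, with a median change of 0.47 against -0.11 in control lungs. Tnfrsf17, the plasma cell survival receptor BCMA, read 5.97, 4.54 and 4.75 in controls and 4.97, 4.72 and 5.09 with smoke at 4 months, then 4.85, 4.74 and 4.75 and 5.70, 6.29 and 6.47. No control array detected it at 6 months, where it was at least 2.38-fold higher with smoke. Its first control array at 4 months lay within the range of the 6-month smoke arrays. Slamf7, a receptor of plasma and killer cells, rose at 6 months by 0.95 and had 0.74 ± 0.25. Pigr, which carries IgA across epithelium and is not made by plasma cells, rose at 6 months by 1.86 and had 1.34 ± 0.48, from a control arm that dropped by 1.58. Derl3 was detected on 2 smoke arrays at 6 months and 1 array in all at 4 months. The list's count was 3 without the second smoke array at 6 months and at most 8 without any other array.

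Of 21 B cell genes, 1 was negative and 0 positive at an unadjusted p below 0.05. The background was 3.87% negative and 4.43% positive, also for the other lists of this paragraph. The B cell median was 0.03. That median was -0.15 without the first control array at 4 months, 0.22 without the second, and 0.34 with array weights, where 4 were positive. Cd79a, a chain of the B cell receptor, read 8.10 to 9.20 over the 12 arrays with overlapping groups at both ages, and its interaction was 0.03 ± 0.35. Ms4a1, which encodes CD20, had -0.52 ± 0.17 from the control arm. Among 25 genes of lymphoid tissue formation, 4 were positive and 1 negative, with a median of 0.18, or 0.07 without the first control array at 6 months. Cxcl13, the chemokine of B cell follicles, read 8.49, 7.72 and 8.53 in controls and 8.76, 8.69 and 8.99 with smoke at 4 months. At 6 months it read 7.06, 8.51 and 7.50 and 9.36, 9.69 and 10.02. It was higher on every smoke array at each age, rose at 6 months by 2.00, and had an interaction of 1.44 ± 0.45 from both arms. Ccl19, a chemokine of T cell zones, had smoke effects of 0.67 and 1.35, the second of which passed, and 0.68 ± 0.39. Among genes of the NF-kappaB and lymphotoxin pathway, 4 of 22 were positive and 1 negative. Tnf rose at 6 months by 1.43 and had 0.97 ± 0.29, and Nfkbia, the inhibitor of NF-kappaB and a glucocorticoid target, had -0.80 ± 0.24.

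**Figure D4:**
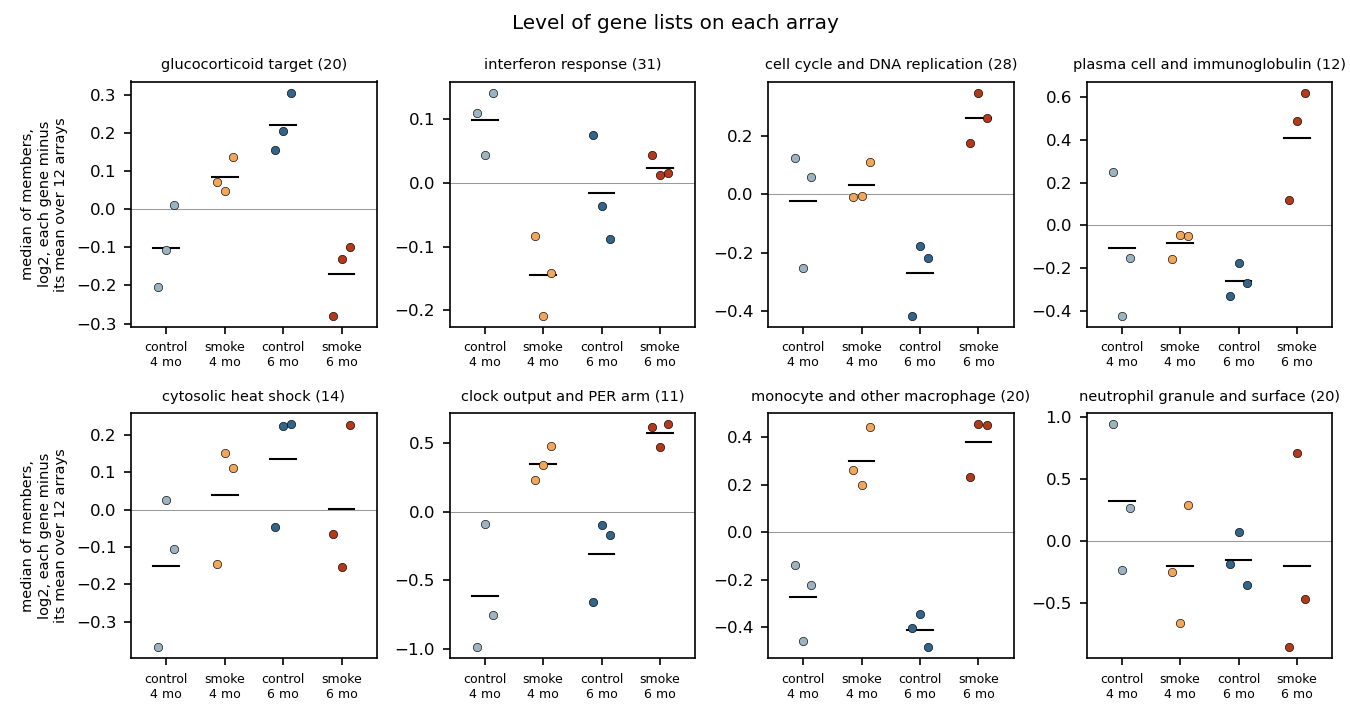
Level of 8 gene lists on each of the 12 arrays, as the median over the tested members (number in brackets) after each gene's mean over the 12 arrays was taken off, on the log2 scale, with a line at the mean of the 3 arrays of a group and axes that differ between panels. The glucocorticoid list is highest in control lungs at 6 months, the cell cycle and plasma cell lists are highest in smoke lungs at 6 months, and the neutrophil list spreads as widely within groups as between them.

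Neutrophil genes had a median interaction of 0.64 that rested on single arrays. It was 0.08 without the first control array at 4 months and 1.07 without the second. The median smoke effect was below 0 at both ages, -0.53 at 4 months and -0.25 at 6 months. The median change between the ages was -0.67 in control lungs and -0.09 in smoke lungs. At an unadjusted p below 0.05, 4 of 20 members were higher and 7 lower at 4 months (background 7.03% and 7.75%). At 6 months 4 were higher and 0 lower (background 9% and 8.38%). The list's level ran from 0.94 to -0.24 over the 3 control arrays at 4 months and from 0.71 to -0.86 over the smoke arrays at 6 months. Cd177, a neutrophil surface protein, read 10.22, 7.30 and 8.26 in controls and 9.81, 9.62 and 9.75 with smoke at 4 months, then 7.33, 7.38 and 7.80 and 10.82, 10.82 and 10.78. It rose at 6 months by 3.30, against the sign of the list's median smoke effect. Its interaction was 2.17 ± 0.71, or 1.35 without the first control array at 4 months. S100a8 had an interaction of 0.43 ± 0.87, within its error, and was 13.30, 12.89 and 12.34 in controls at 6 months against 11.20, 13.66 and 11.89 with smoke. Dnase1l3, a secreted DNase of macrophages and dendritic cells, rose at 6 months by 1.88 and had 1.80 ± 0.52.

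Gpnmb, Mmp12, Ctsk and Trem2, macrophage genes with large smoke effects, had similar estimated effects at both ages. Gpnmb, a lysosomal glycoprotein, read 9.53, 9.08 and 10.07 in controls and 12.86, 12.86 and 13.14 with smoke at 4 months, then 9.47, 9.65 and 9.58 and 12.91, 13.04 and 12.84. It rose by 3.39 and by 3.36, an interaction of -0.03 ± 0.28, with the opposite sign on 2 other probes. Mmp12, the macrophage elastase, rose by 3.47 and 3.72 (0.25 ± 0.59), Ctsk, cathepsin K, by 2.75 and 3.06 (0.31 ± 0.25), and Trem2, a lipid receptor, by 2.58 and 2.79 (0.22 ± 0.24). The 95% interval of the interaction ran from -0.63 to 0.57 for Gpnmb and from -1.03 to 1.52 for Mmp12, so equal effects are not shown. Without the third control array at 4 months the values were -0.29 and -0.30. Without the second they were 0.21 and 0.71. Over 30 lysosome and lipid genes, smoke raised 13 at 4 months and 17 at 6 months (background 1.28% and 3.35%) and lowered 0. Their median interaction was 0.06, and 3 were positive and 2 negative at an unadjusted p below 0.05 (background 4.43% and 3.87%). Hexa, a subunit of hexosaminidase, rose at 6 months by 0.82 and had 0.53 ± 0.18.

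Other macrophage genes stood on either side of 0. Over 20 monocyte and other macrophage genes the median smoke effect was 0.34 at 4 months and 0.70 at 6 months. Of their interactions 16 were positive and 4 negative, with a median of 0.15. At an unadjusted p below 0.05, 2 were positive and 0 negative (background 4.43% and 3.87%). Over 15 alveolar macrophage genes the median smoke effects were 0.35 and 0.59, and 2 interactions were positive and 2 negative at that p. Marco, a scavenger receptor, rose by 1.58 and 2.05 and had 0.47 ± 0.20, while Itgax, the integrin CD11c, rose by 1.12 and 0.59 and had -0.53 ± 0.22. C1qa, a chain of complement C1q, rose by 0.89 and 1.46 and had 0.57 ± 0.22. Cfb, complement factor B, rose at 6 months by 1.34 and had 0.90 ± 0.27 from the control arm. Among the genes that smoke lowered, Spon2, a matrix protein, fell by 1.76 and 1.77, an interaction of 0.00 ± 0.23, while both arms dropped with age, by 0.95 and 0.96. Npy, a neuropeptide, rose by 2.65 at 4 months and was at least 6.9-fold higher at 6 months, when no control array detected it. Genes of alveolar type 2 cells and surfactant, 25 in number, had a median of -0.03, with 0 positive and 0 negative at an unadjusted p below 0.05. Adipoq, a marker of fat tissue, read 6.31 to 9.70 and Myh6, a marker of heart muscle, 6.93 to 9.01 over the 12 arrays, with interactions of 1.19 and -0.05. The part of such neighbouring tissue in the interactions was not tested.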

How the data were processed

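The authors deposited raw probe intensity on a linear scale, below 0 for 18.3 to 21.0% of probes, with a detection p-value per probe, per the file headers. A second deposited table of normalized intensity served as an alternative (r of 0.994 with the interaction used here). No source used here names the scanner software or the authors' normalization. The deposited intensity was background-corrected with limma 3.58.1 (R 4.3.3; neqc, offset of 16, quantile) and put on the log2 scale. The offset understates changes of dim probes. Of 25697 probes, 15490 were detected (p under 0.05) on 3 or more arrays and kept, 900 of them unnamed, which gave 10541 genes by the brightest probe. Platform annotation gave 23978 probes 1 symbol and 1719 none, and 23962 were updated through RefSeq gene identifiers. One model with 1 mean per group was fitted with lmFit and eBayes (8 residual and 4.54 prior degrees of freedom), with 6 contrasts and Benjamini-Hochberg adjustment over probes. The script was checked on simulated data. All p-values are two-sided and measure the spread between these arrays. In this balanced design the average smoke effect is uncorrelated with the interaction.

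A gene reverses where its smoke effects have opposite signs, and an arm carries a gene where its change is at least 2 times the other's. A probe detected on no array of a group gives a bound against the lowest detected signal. Lists (56, 1268 entries, 1114 on the array) and members were chosen with earlier results of these data known. Named genes are the 10 with the smallest interaction p in each direction, up to 4 of the smallest p in each list described, a fixed set, and, of genes called on average, the 5 with the largest interaction in each direction. Pdk4 and Angptl4 were named after their values were seen. The replicate numbers did not pair the samples: of 18 same-number pairs, r ran from -0.387 to 0.247 and 1 was over 0.1.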

Additional observations from a re-analysis of the deposited data

Results flagged for a closer look

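Of the 249 named genes, 15 had opposite separation at the 2 ages. In them every smoke array lay on one side of every control array at 4 months and on the other side at 6 months. Over all genes this held for 73 of 10541 (0.693%), 33 of them higher with smoke at 4 months and 40 lower. Most named genes were chosen for a small interaction p, which favours such a separation, so nothing is read from the 15. The difference was tested by the interaction, and limma's adjusted p was 0.142 for Lox and higher for each of the others. The interaction, on the log2 scale, was negative in 10 of them. It was -1.174 for Lox, -1.189 for Tsc22d3, -1.209 for Enpep, -1.561 for Errfi1 and -0.700 for Arhgap10. It was -0.840 for Fmo2, -0.864 for Akap12, -1.135 for Cdkn1a, -0.628 for Spon1, a matrix protein, and -0.797 for Nfkbia. In the other 5 it was positive, at 1.054 for Lag3, 0.808 for Espl1, 0.797 for Entpd7, a nucleotidase, 0.814 for Cdc20 and 0.608 for Hyou1, a chaperone of the endoplasmic reticulum. Groups of 3 arrays are too small for the outlier test used elsewhere in such data.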

How the results depend on the processing

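The interaction called 0 genes, 1 with an offset of 50 or with scaling to equal medians, 2 with the mean of a gene's probes, 13 with array weights, and 0 to 2 when each array was left out. Genes at an unadjusted p below 0.05 numbered 579 without the first control array at 4 months and 1561 without the third, and 1858 (17.6%) with array weights. The average smoke effect called 1252 genes with array weights and 448 to 951 with an array left out. The 4-month effect called 648 and 87 to 370, and the 6-month effect 273 to 595. The lowest of these counts came without the third smoke array of 4 months (448 and 87) or of 6 months (273), and 370 and 951 without the third control array at 4 months. Control lungs changed between the ages in 12 genes with the deposited values, 2 without further background correction, 20 with an offset of 50, 2 with all probes, 3 with probes detected on all 12 arrays, 175 with array weights and 0 to 575 with an array left out. Smoke lungs did so in 1, 6 and 1 with no further correction, equal medians and all probes, in 372 with array weights and in 0 to 7 with an array left out. The share with a larger effect at 6 months, an alternative added after seeing the data like the list counts, was 66.2% with equal medians, 61.6% with array weights and 48.1 to 77.6% with an array left out. With the replicate number as a block the control count was 0 and the smoke count 1, the interaction called 0 and the average effect 572.

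Of 5441 recomputed interactions of 249 named genes, 69 changed sign, in 22 genes, most of them with a value smaller than its standard error to begin with. Where the value exceeded it, 6 changed sign: Cd8b1 ran from -1.02 (without the third control array at 4 months) to 0.034 (without the second), Fkbp5 from -0.854 to 0.047 (without the first and the second control array at 6 months), and with the mean of probes Elovl1 at -0.12, Pon3 at 0.032, Tirap at -0.029 and Tkt at -0.20. The causes were not tested. The 19 that passed included Lox under 5 alternatives, at adjusted p of 0.0208 to 0.0498. No slide or position is in the headers used here, so a chip block was not run. An adjusted p below 0.1 called 0 genes for the interaction.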
